A study of Mus musculus with 8 samples.

Results

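Nanog, Gdf3, Dppa3, Apobec1, Slc2a3 and Foxj2 are neighbouring genes on mouse chromosome 6 whose mRNA was measured in control and Dax1KO embryonic stem cells (ESCs). These 6 genes, of 52550 listed in the files and 3109 listed on chromosome 6, were chosen as a named group. They were chosen by position and by their log2 fold change of Dax1KO over control cells, seen beside an upward shift of the whole of chromosome 6 in the Dax1KO cells. Values of the comparison of Dax1KO with control cells are therefore given as a description, without p-values. Counts of calls in it stand beside the share of all genes called and nothing is read from them. The comparison of the 2 media was tested. It uses the same libraries, so its p-values and calls are not independent of the choice of the genes. All 6 genes passed the filter on low counts, as did 1054 genes of chromosome 6.

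Control ESCs (genotype given as control) and Dax1-knockout ESCs were each grown in 2i/LIF and in LIF/serum, giving 4 groups of 2 libraries at passage 3, all on gelatin without feeder cells named in the labels. The 2i/LIF medium was N2B27 with 1 μM PD0325901, a MEK inhibitor, 3 μM CHIR99021, a GSK3 inhibitor, and 10 ng/ml LIF. The LIF/serum medium was DMEM with 15% fetal bovine serum and 10 ng/ml LIF. According to the methods of the study, the Dax1KO cells were made in 2i/LIF with lentiviral CRISPR/Cas9 and zeocin selection, and picked as colonies. The study states that 1 of its Dax1KO clones was used in its experiments, and the labels name none, so a property of 1 clone and an effect of the loss of Dax1 cannot be told apart in these libraries. Nothing in the labels says that the replicates came from separate cultures, so p-values measure only the spread between these libraries, which may be technical.

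Nanog is a homeodomain transcription factor of the naive pluripotency network, and in mouse ESCs its gene lies beside other genes that are active in the early embryo and the germ line. Dppa3 (also called Stella) encodes a maternal factor that protects DNA methylation in the early embryo and is expressed in a mosaic way in serum cultures. Gdf3 encodes a ligand of the TGF-β family related to Nodal. The other members have roles outside pluripotency. Apobec1 encodes a cytidine deaminase that edits RNA, Slc2a3 encodes a high-affinity glucose transporter of the plasma membrane, and Foxj2 encodes a forkhead transcription factor.

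In GRCm38 coordinates, the genes lay in the order Apobec1 (ENSMUSG00000040613.14, chr6:122577792-122602444, minus strand), Gdf3 (ENSMUSG00000030117.5, chr6:122605403-122610087, minus strand) and Dppa3 (ENSMUSG00000046323.8, chr6:122626410-122630272, plus strand). Nanog (ENSMUSG00000012396.12, chr6:122707489-122714633, plus strand), Slc2a3 (ENSMUSG00000003153.10, chr6:122727809-122801640, minus strand) and Foxj2 (ENSMUSG00000003154.15, chr6:122819914-122845366, plus strand) followed. The group spanned 267.6 kb. The gaps between neighbours were 2.96 kb between Apobec1 and Gdf3, 16.3 kb between Gdf3 and Dppa3, 77.2 kb between Dppa3 and Nanog, 13.2 kb between Nanog and Slc2a3, and 18.3 kb between Slc2a3 and Foxj2. Slc2a3 overlapped the pseudogene Gm4482 on the same strand, and Foxj2 overlapped the antisense gene Gm26826 and Mir7231. Whether the counting used strand is not stated, but Gm4482 and Gm26826 had means of at most 21.7 and 26.0 normalized counts in any group.

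The promoter of Nanog is shown because Nanog had the highest level per length of the group in every library. Its proximal promoter also holds a known composite element for the factors OCT4 and SOX2. The 250 bases before its first annotated start are given from RefSeq (GRCm38.p6, chr6:122707239-122707488, plus strand), with the composite match in capitals.
Nanog promoter: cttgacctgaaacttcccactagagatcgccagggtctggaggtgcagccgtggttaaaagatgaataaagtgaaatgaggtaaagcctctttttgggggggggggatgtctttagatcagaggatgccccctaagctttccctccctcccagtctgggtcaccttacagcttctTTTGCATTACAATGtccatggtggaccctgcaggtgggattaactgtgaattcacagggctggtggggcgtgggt
The match lay from 75 to 62 bases before the start. On both strands, TTTGCAT occurred in 4.13% and ACAATG in 10.7% of 32817 RefSeq promoter windows. The composite form, both motifs with 1 base between them and no mismatch allowed, occurred in 2 windows, both of Nanog. These 2 windows overlap and hold the same 1 site. The RefSeq windows of Apobec1 and Foxj2 held none of these letters, which says nothing about binding of any factor there.

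As a check of the labels, Dax1 (Nr0b1) had 456 and 300 counts in control and 0 and 0 in Dax1KO libraries in 2i/LIF, and 5095 and 4689 counts against 14 and 6 in LIF/serum. Total counts lay between 35911384 and 37286251 per library. Markers of undifferentiated ESCs (Pou5f1, Sox2, Zfp42, Tdgf1, Utf1, Dppa5a) were above 0 in every library, with a summed level of 3027 to 4287 RPKM, the count scaled for the length of the exons in kb and for library size after TMM. Markers of other cell types were far lower but moved with the groups. The sum over 6 primitive endoderm markers was 4.11 and 4.35 in control cells and 4.83 and 5.82 in Dax1KO cells in 2i/LIF, against 16.8 and 23.1 in control cells and 50.7 and 61.0 in Dax1KO cells in LIF/serum. In control cells the sum over 4 neural ectoderm markers was 42.1 to 42.5 in 2i/LIF and 69.3 to 77.6 in LIF/serum, that over 6 trophectoderm markers 33.9 to 40.2 and 46.2 to 46.8, and that over 5 mesoderm markers 7.36 to 7.70 and 3.58 to 3.76. The part of these markers in the medium results was not tested.

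Nanog was the most abundant of the 6 transcripts per length, in both media and both genotypes. These levels are RPKM. In control cells in 2i/LIF the mean levels were 846 ± 72.1 (SD, n = 2) for Nanog, 121 for Slc2a3, 95.9 for Dppa3, 30.1 for Gdf3, 5.35 for Apobec1 and 3.15 for Foxj2. In control cells in LIF/serum Nanog stood at 323 ± 9.99 (SD, n = 2), followed by Slc2a3 at 121, Gdf3 at 66.0, Dppa3 at 14.2, Apobec1 at 4.42 and Foxj2 at 1.91, so Gdf3 and Dppa3 stood in the reverse order. In Dax1KO cells in 2i/LIF, Dppa3 at 210 ± 36.2 (SD, n = 2) stood above Slc2a3 at 123, the only group with that order. In Dax1KO cells in LIF/serum the order was that of control cells in the same medium, from Nanog at 391 and Slc2a3 at 240 to Foxj2 at 3.06. In each group the libraries of neighbours in the order did not overlap, although in Dax1KO cells in LIF/serum Dppa3 (lowest library 5.81) was close to Apobec1 (highest library 5.77).

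**Figure D1:**
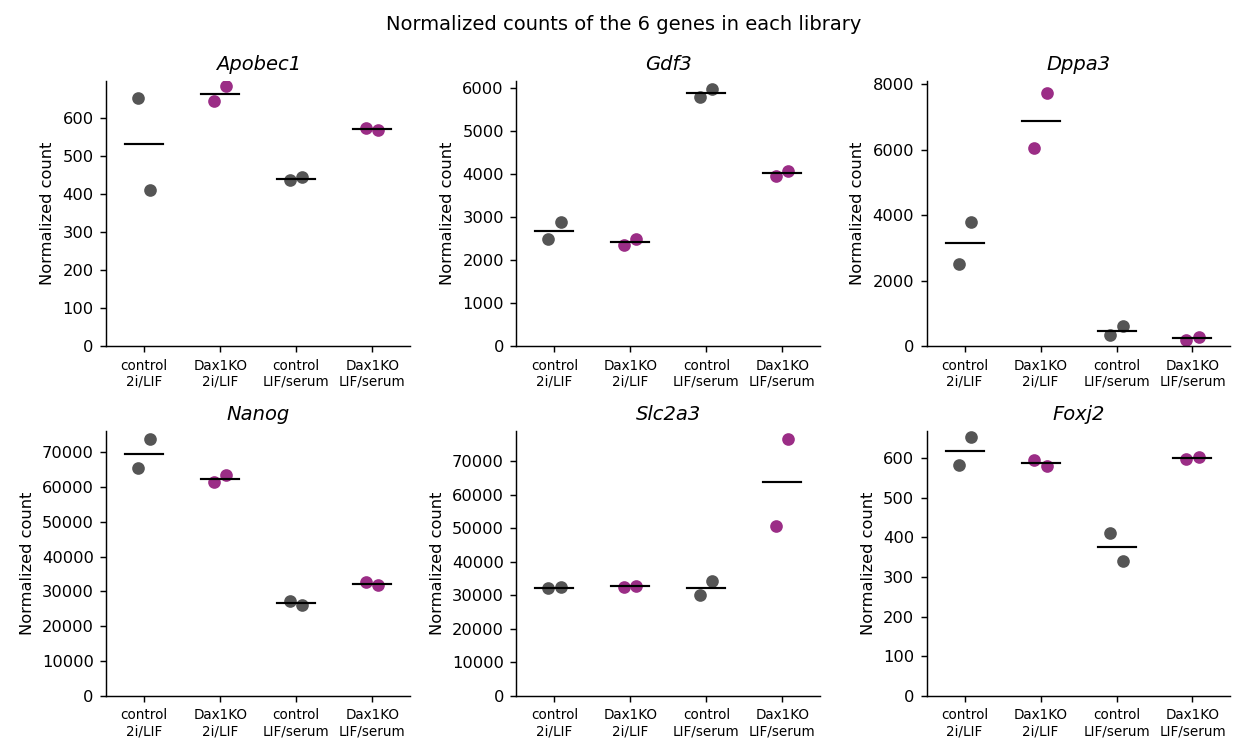
Normalized counts (counts after TMM scaling to the average library) of the 6 genes on linear axes that start at 0, 1 panel per gene in chromosomal order. Points are single libraries (grey, control; purple, Dax1KO) and lines are the means of 2 libraries. Nanog and Dppa3 were higher in 2i/LIF in both genotypes and Gdf3 was lower, and the Slc2a3 libraries of Dax1KO cells in LIF/serum lay apart at 50847 and 76812.

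The first question was how the medium changed these genes in control cells. Nanog, Dppa3 and Foxj2 rose in 2i/LIF and Gdf3 fell, while Apobec1 and Slc2a3 did not pass the test. Thus 4 of 6 genes were called (adjusted p no higher than 0.05 with at least a 1.2-fold change), 3 higher and 1 lower, against 36.8% of the 20749 genes tested (20.3% higher, 16.5% lower). Their median log2 fold change was 0.50, and that of all tested genes was 0.01.

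Nanog had 65453 and 73848 normalized counts in 2i/LIF and 27164 and 25999 in LIF/serum. Both libraries in 2i/LIF lay well above both in LIF/serum. The log2 fold change was 1.39 (SE 0.10), with a Benjamini-Hochberg adjusted p of 7.44e-05 in edgeR's quasi-likelihood test.

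Dppa3, the methylation-protecting maternal factor, had the largest difference of the group. It had 2498 and 3791 normalized counts in 2i/LIF and 325 and 604 in LIF/serum. The groups did not overlap, but the libraries within each group differed more than those of Nanog. The log2 fold change was 2.76 (SE 0.34; edgeR, adjusted p = 0.000636). In bulk RNA, fewer cells expressing a gene and less RNA of it per cell cannot be told apart. A pseudogene, Dppa3-ps, matched 54.1% of the longest Dppa3 transcript at 95% identity or more, and it had at most 12 counts in any library. How reads shared by the pair were counted is not given, so the Dppa3 values are uncertain to that extent.

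Gdf3, the Nodal-related ligand, moved the opposite way from Dppa3 and Nanog. It had 2487 and 2880 normalized counts in 2i/LIF and 5777 and 5975 in LIF/serum. The groups were well apart, and the log2 fold change was -1.13 (SE 0.11; edgeR, adjusted p = 0.00025).

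Of the remaining members, Foxj2 had 583 and 654 normalized counts in 2i/LIF and 411 and 340 in LIF/serum. Its groups did not overlap, with a log2 fold change of 0.72 (SE 0.16; edgeR, adjusted p = 0.00969). This call rested on single libraries. Without the second control library in 2i/LIF the log2 fold change was 0.59 (edgeR, adjusted p = 0.0704), and without the second control library in LIF/serum it was 0.56 (edgeR, adjusted p = 0.0557). Apobec1, the RNA-editing deaminase, had 652 and 410 normalized counts in 2i/LIF, on either side of the 435 and 443 in LIF/serum. Its log2 fold change of 0.28 (SE 0.22; edgeR, adjusted p = 0.357) was within the spread of the 2i/LIF libraries, and it ran from -0.09 to 0.53 with a library left out. Slc2a3, the glucose transporter, had 32116 and 32372 normalized counts in 2i/LIF, between the 29958 and 34303 in LIF/serum, and a log2 fold change of 0.01 (SE 0.18; edgeR, adjusted p = 0.986).

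In Dax1KO cells the same change of medium was measured in libraries that share none with those of control cells. Nanog and Dppa3 were higher and Gdf3 lower in 2i/LIF there too. Slc2a3 was lower in 2i/LIF, and Foxj2 did not pass the test. Of the 6 genes 4 were called, 2 higher and 2 lower, against 28.9% of all tested genes (15.2% higher, 13.7% lower). The count includes Slc2a3, whose value is close to one by which the genes were chosen, so its call does not test it.

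Dppa3 had 6050 and 7726 normalized counts in Dax1KO cells in 2i/LIF and 190 and 277 in LIF/serum, the widest separation of any member in any comparison. It was 29.5-fold higher in 2i/LIF, a log2 fold change of 4.88 (SE 0.38; edgeR, adjusted p = 0.000103). Nanog had 61471 and 63425 normalized counts in 2i/LIF and 32666 and 31737 in LIF/serum, a log2 fold change of 0.96 (SE 0.10; edgeR, adjusted p = 0.000457). Gdf3 had 2357 and 2492 normalized counts in 2i/LIF and 3955 and 4069 in LIF/serum, a log2 fold change of -0.73 (SE 0.11; edgeR, adjusted p = 0.00257), again with no overlap.

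Slc2a3 had 32627 and 32835 normalized counts in Dax1KO cells in 2i/LIF and 50847 and 76812 in LIF/serum. The libraries in LIF/serum were both higher but lay far from each other. The log2 fold change was -0.96 (SE 0.18). It was -0.63 without the second Dax1KO library in LIF/serum and -1.23 without the first. Slc2a3 was at 0.01 between media in control cells and at 0.02 for Dax1KO over control in 2i/LIF. Its value here is therefore close to its Dax1KO value in LIF/serum with the sign turned. The genes were chosen on that value, so no p-value is given. Apobec1 had 644 and 682 normalized counts in 2i/LIF and 573 and 566 in LIF/serum (log2 fold change 0.22, SE 0.22; edgeR, adjusted p = 0.499). Foxj2 had 595 and 580 normalized counts in 2i/LIF and 599 and 603 in LIF/serum, with a log2 fold change of -0.03 (SE 0.16; edgeR, adjusted p = 0.906).

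**Figure D2:**
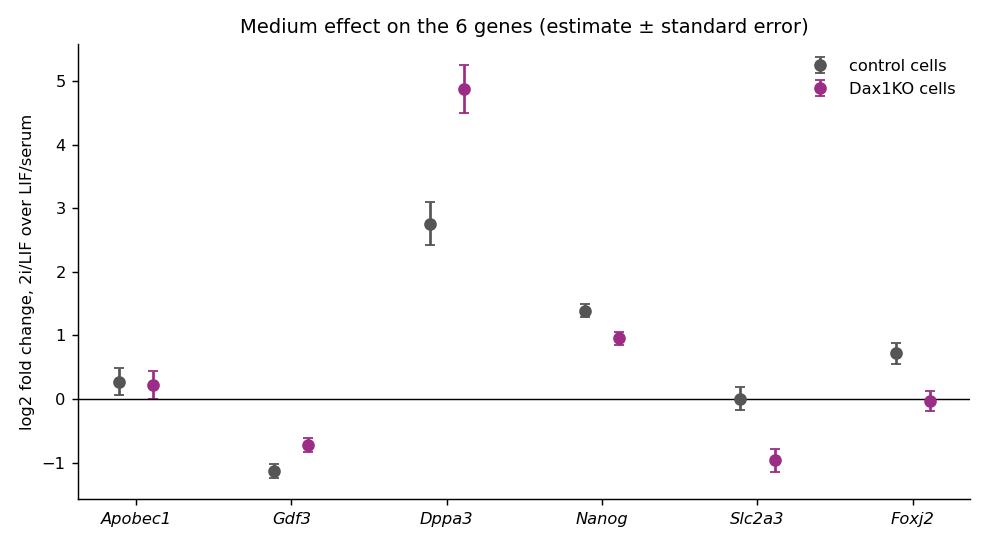
Log2 fold change of 2i/LIF over LIF/serum for the 6 genes in chromosomal order, in control cells (grey) and Dax1KO cells (purple), as estimates with standard errors from the edgeR fit. Dppa3 stood at 2.76 in control and 4.88 in Dax1KO cells, Gdf3 was below 0 in both, and Slc2a3 and Foxj2 were away from 0 in 1 genotype each.

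The genes that work with these members were counted from lists, which were chosen with earlier results of these data known. Among 10 other naive pluripotency factors, 4 rose in 2i/LIF in control cells and none fell. Beside this and the list counts that follow stand the shares of all tested genes, 20.3% higher and 16.5% lower in control cells and 15.2% higher and 13.7% lower in Dax1KO cells, and no list was tested against them. The 4 were Prdm14 at 1.80 (edgeR, adjusted p = 0.000214), Tfcp2l1 at 1.45, Tbx3 at 1.31 and Klf4 at 0.74 on the log2 scale. The list had a median of 0.26. In Dax1KO cells 2 of 10 rose, Tfcp2l1 by 1.77 and Prdm14 by 1.06, and Zfp42 had a log2 fold change of -0.55 and was called lower. Among 5 core pluripotency factors, 4 were lower in 2i/LIF in control cells, with Lin28a, an RNA-binding protein, at -3.35 (edgeR, adjusted p = 0.000573) and Pou5f1, which encodes OCT4, at -0.68. All 5 were lower in Dax1KO cells. Nanog had the direction of the naive factors that were called in control cells.

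Around Gdf3, 14 genes of the Nodal and Activin pathway were tested, of which 3 rose and 5 fell in 2i/LIF in control cells. The 3 with the largest changes were lower, as Gdf3 was. The secreted Nodal inhibitor Lefty1 had a log2 fold change of -4.71 (edgeR, adjusted p = 8.2e-05), the Activin subunit Inhbb of -1.98 and Lefty2 of -1.54. Those that rose were the signal transducer Smad3 at 1.25 and, named after their values were seen, the receptor Acvr1b at 0.77 and Smad4 at 0.45. In Dax1KO cells 1 rose and 4 fell, with Inhbb at -2.69, Lefty1 at -2.39 and the ligand Nodal at -1.03. The 1 that rose was Smad3, at 0.88.

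Around Dppa3, 9 enzymes of DNA methylation and its oxidation were tested in control cells, and 2 rose and 4 fell in 2i/LIF. The de novo methylation genes Dnmt3l, at -2.42 (edgeR, adjusted p = 0.000541), and Dnmt3b, at -1.79, were lower, as was Tet1 at -0.88. The maintenance genes Uhrf1, at 0.91, and Dnmt1, at 0.81 and named after its values were seen, were higher. In Dax1KO cells the same maintenance genes were called higher at 0.81 and 0.66, and Dnmt3l, Dnmt3a and Dnmt3b lower at -2.37, -1.94 and -1.22. Around Apobec1, 3 other deaminases and cofactors were tested. Apobec2 was higher (0.93 in control and 0.85 in Dax1KO cells) and the cofactor Rbm47 lower (-0.75 and -1.60).

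Around Slc2a3, 5 glucose transporters and hexokinases were tested. In control cells Hk1 at 2.26 and Slc2a8 at 0.76 were higher in 2i/LIF, and Slc2a1, the other main glucose transporter of many cells, was lower at -2.12 (edgeR, adjusted p = 0.00495). In Dax1KO cells Hk1 was higher at 1.49 and Slc2a1 lower at -1.32. Of the relatives of Foxj2, Foxj3 was higher in 2i/LIF in both genotypes (0.72 in control cells and 0.76 in Dax1KO cells), and Foxj1, a regulator of motile cilia, was lower in control cells at -2.36.

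The second question was what the knockout did to these genes in each medium. These values use the contrast by which the genes were chosen, and they share libraries with the medium comparisons above, so they are given without p-values and without a reading of how many passed a threshold. In 2i/LIF the threshold was passed by 0 of the 6 genes and by 3.16% of all tested genes (1.51% higher, 1.65% lower). Nanog was at a log2 fold change of -0.16 (SE 0.10) and Gdf3 at -0.15 (SE 0.11). The Nanog libraries of Dax1KO cells, at 61471 and 63425, lay just below the control libraries, and those of Gdf3 overlapped. Dppa3 was 2.19-fold higher in Dax1KO cells, at 1.13 (SE 0.32), with 6050 and 7726 against 2498 and 3791 normalized counts. Apobec1 was at 0.32 (SE 0.22), Slc2a3 at 0.02 (SE 0.18) and Foxj2 at -0.07 (SE 0.16). Of the last 3, Apobec1 and Foxj2 overlapped between genotypes, and the Slc2a3 libraries of Dax1KO cells, at 32627 and 32835, lay just above the 32116 and 32372 of control cells. Thus 3 of the 6 genes did not overlap between genotypes in 2i/LIF, as 51.8% of all tested genes did not. With a library left out, Apobec1 ranged from 0.04 to 0.69, Dppa3 from 0.86 to 1.48, Nanog from -0.24 to -0.05 and Gdf3 from -0.25 to -0.02, and Foxj2 changed sign, from -0.16 to 0.03.

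In LIF/serum the threshold was passed by 3 of the 6 genes, 2 higher and 1 lower, and by 14.7% of all tested genes (8.87% higher, 5.78% lower). The members were chosen on these values, so the counts do not test them. Slc2a3 was 1.99-fold higher, at 0.99 (SE 0.18), and Foxj2 1.60-fold higher, at 0.68 (SE 0.16). Gdf3 was lower at -0.55 (SE 0.11). Dppa3 was at -0.99 (SE 0.34), Apobec1 at 0.38 (SE 0.22) and Nanog at 0.28 (SE 0.10). For each of the 6 genes the 2 Dax1KO libraries lay either both above or both below the control libraries, as did those of 57.5% of all tested genes, and nothing is read from this count either. With a library left out, 1 to 3 genes passed the threshold. Dppa3 was at -0.49 without the second control library in LIF/serum and at -1.37 without the first. The primitive endoderm markers, given above by library, were higher in the same Dax1KO libraries, and 4 of 6 of them were called higher and none lower. In 2i/LIF 1 of 6 was called higher and none lower. Mesoderm markers also differed. In LIF/serum their sum over 5 genes was 3.58 to 3.76 RPKM in control and 9.09 to 10.3 in Dax1KO libraries. Of the 5, 2 were called higher there. In 2i/LIF that sum was 7.36 to 7.70 in control and 8.52 to 8.84 in Dax1KO libraries, with none called. In 2i/LIF the sum over 6 trophectoderm markers was 33.9 to 40.2 in control and 60.0 to 60.5 in Dax1KO libraries, with 2 of 6 called higher, Krt8 and Krt18, which encode keratins. In LIF/serum that sum was 46.2 to 46.8 in control and 57.7 to 67.8 in Dax1KO libraries, with 1 called higher and 1 lower. The neural ectoderm sum in 2i/LIF was 42.1 to 42.5 in control and 31.4 to 33.1 in Dax1KO libraries, with none called. In LIF/serum it was 69.3 to 77.6 in control and 57.5 to 71.8 in Dax1KO libraries, with 1 of 4 called lower. The part of these markers in the values of the 6 genes was not tested.

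The knockout values of the 2 media lay apart for several members. The value in LIF/serum minus that in 2i/LIF was -2.12 (SE 0.46) for Dppa3, 0.97 (SE 0.26) for Slc2a3, 0.75 (SE 0.23) for Foxj2, 0.43 (SE 0.14) for Nanog, -0.40 (SE 0.16) for Gdf3 and 0.06 (SE 0.31) for Apobec1. Dppa3 was above control in 2i/LIF and below it in LIF/serum, and Nanog was below control in 2i/LIF and above it in LIF/serum. These 2 of the 6 genes had all Dax1KO libraries beyond the control libraries on opposite sides in the media, as had 9.50% of all tested genes. These differences were not tested.

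The third question was how these values stand beside the rest of chromosome 6, whose genes were higher as a whole in the Dax1KO cells. The median log2 fold change of the 1054 tested genes of chromosome 6 was 0.44 (2i/LIF) and 0.52 (LIF/serum). The medians of the 19 other chromosomes lay between -0.06 and 0.00 in 2i/LIF and between -0.15 and 0.09 in LIF/serum. The shift was seen in each Dax1KO library, at 0.45 and 0.43 in 2i/LIF and 0.50 and 0.52 in LIF/serum against the mean of the control libraries. It ran along the chromosome, with medians above 0 in 16 of 16 bins of 10 Mb in both media, from 0.15 to 0.56 in 2i/LIF and from 0.12 to 0.67 in LIF/serum. In the bin around Nanog, with 148 tested genes, the medians were 0.41 and 0.55. In the medium comparisons the median of chromosome 6 was 0.06 in control cells and 0.05 in Dax1KO cells. No measure of DNA copy number was analysed here.

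**Figure D3:**
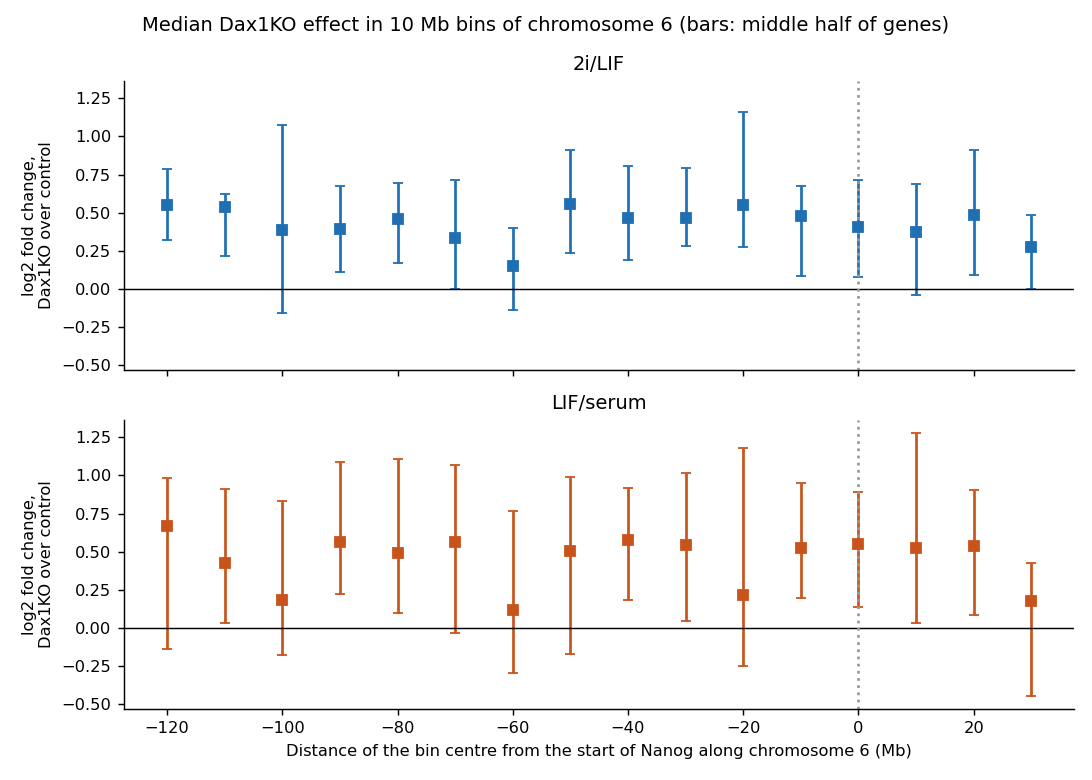
Median log2 fold change of Dax1KO over control cells in 10 Mb bins of chromosome 6 (squares) with the middle 50% of genes (bars), against the distance of the bin centre from the start of Nanog in Mb, in 2i/LIF (top) and LIF/serum (bottom). The dotted line marks Nanog, and 16 of 16 medians lie above 0 in both media.

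In 2i/LIF, 5 of the 6 genes stood below the chromosome median. Nanog was 0.60 below it, Gdf3 0.59, Foxj2 0.52, Slc2a3 0.42 and Apobec1 0.12 below it on the log2 scale. They held the percentiles 14.7 (Nanog), 15.1 (Gdf3), 17.7 (Foxj2), 21.7 (Slc2a3) and 39.7 (Apobec1) among the tested genes of chromosome 6. Dppa3 was 0.69 above the median, at percentile 87.3. In each Dax1KO library taken alone, against the mean of the control libraries, the same 5 genes were below and Dppa3 above the median of that library. With a library left out of the fit, Apobec1 ran from 0.04 to 0.69 and the chromosome median from 0.41 to 0.45. The side of Apobec1, and so the count of 5, therefore rested on single libraries.

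In LIF/serum, 4 of the 6 stood below the chromosome median and 2 above it. Dppa3 was 1.51 below it (percentile 4.65), Gdf3 1.07 below (percentile 9.87), Nanog 0.24 below (percentile 35.2) and Apobec1 0.14 below (percentile 40.3). Foxj2 was 0.16 above it (percentile 60.8) and Slc2a3 0.47 above it (percentile 75.9). These sides held in both Dax1KO libraries, where Slc2a3 was 0.17 and 0.74 above the median of its library.

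**Figure D4:**
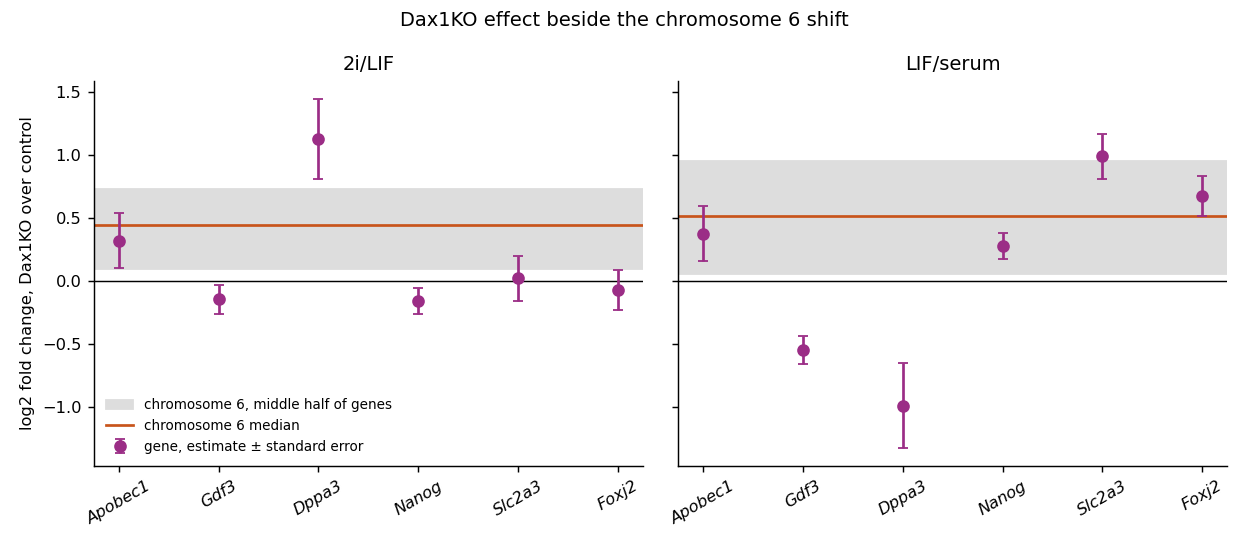
Log2 fold change of Dax1KO over control cells for the 6 genes (purple, estimate with standard error) with 2i/LIF on the left and LIF/serum on the right. The orange line is the median of the 1054 tested genes of chromosome 6 (0.44 and 0.52) and the grey band holds the middle 50% of them. In 2i/LIF Dppa3 lies above the band, Nanog, Gdf3, Foxj2 and Slc2a3 lie below it and Apobec1 lies within it. In LIF/serum Dppa3 and Gdf3 lie below the band, Slc2a3 lies just above it and the others lie within it.

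The surrounding genes were described in the same way. From 1 Mb before Apobec1 to 1 Mb after Foxj2, 63 other genes were counted, of which 37 had no count in any library and 15 were tested. The 7 protein-coding genes among the 15 were at a median of 0.35 (2i/LIF) and 0.86 (LIF/serum) for Dax1KO over control. All tested genes of the chromosome, of every type, had medians of 0.44 and 0.52, and its protein-coding genes had slightly higher ones, given below. The median of 0.86 includes Clec4a1, which had no count in LIF/serum and entered as 0. The 5 pseudogenes had medians of 0.02 and 0.05. How reads shared by a pseudogene and a related gene elsewhere were counted is not given. Values of these pseudogenes, also those given singly below, may therefore not describe this locus. In LIF/serum 6 of the 15 were called higher and none lower, and in 2i/LIF 1 was called higher and none lower. Of the 1054 tested genes of chromosome 6, 298 were called higher and 17 lower in LIF/serum, and 104 higher and 7 lower in 2i/LIF. Named after their values were seen, M6pr was the 1 in 2i/LIF, at 0.60, and M6pr (0.42), Phc1 (0.49) and A2m (2.50) were among the 6 in LIF/serum, with Necap1, Mfap5 and Rimklb.

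Of the 10 neighbours described singly, Necap1, which encodes a protein of clathrin-coated vesicles and lies 29.1 kb beyond Foxj2, was at 0.35 (SE 0.12) in 2i/LIF and 0.94 (SE 0.12) in LIF/serum. Mfap5, a microfibril gene 48.5 kb before Apobec1, was at 1.22 (SE 0.29) and 2.14 (SE 0.31), and Rimklb at 0.66 (SE 0.15) and 0.86 (SE 0.15). Clec4a1, a C-type lectin gene 76.5 kb beyond Foxj2, was at -2.12 (SE 0.49) in 2i/LIF and had no count in LIF/serum. Between Dppa3 and Nanog, the pseudogenes Gm10420 and Gm10224 were at 0.08 and 0.02 in 2i/LIF and at 0.09 and 0.05 in LIF/serum, with means of 1227 to 1669 and 434 to 450 normalized counts. The low-count neighbours Gm4482, Gm26826 and Gm5112 were at 3.13, -0.28 and 1.01 in 2i/LIF and at 0.54, 0.56 and 1.07 in LIF/serum. Their standard errors were 0.40 to 1.03. Gm4482 had a mean of 1.00 normalized counts in control cells in 2i/LIF, below the floor of 3 counts. The pseudogene Gm8430 was at -0.14 (SE 0.28) in 2i/LIF and -0.44 (SE 0.28) in LIF/serum.

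**Figure D5:**
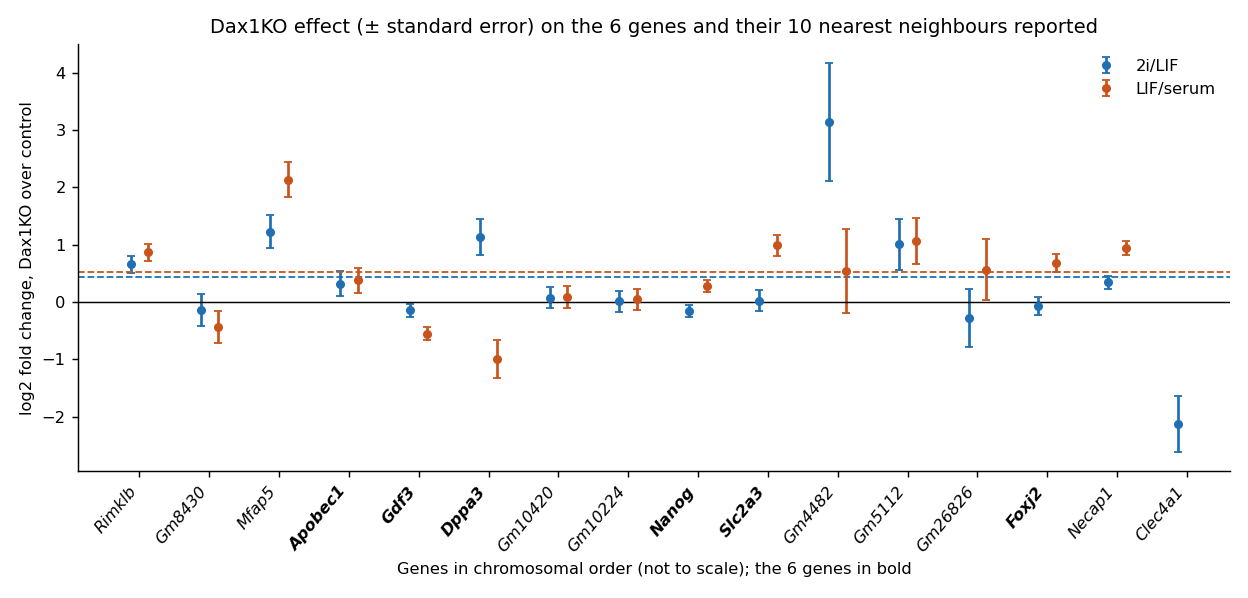
Log2 fold change of Dax1KO over control cells (points, with standard errors) for the 6 genes (bold) and their 10 nearest neighbours reported here, in chromosomal order, not to scale, in 2i/LIF (blue) and LIF/serum (orange). Dashed lines are the chromosome 6 medians, 0.44 and 0.52. Clec4a1, with no count in LIF/serum, has a point in 2i/LIF only.

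In the medium comparison 4 of the 15 neighbours were called higher and 4 lower in 2i/LIF in control cells, where 36.8% of all tested genes were called, and 1 higher and 3 lower in Dax1KO cells, where 28.9% were. Of the 7 protein-coding neighbours, 4 were called higher and 1 lower in control cells, with a median of 0.49, and 1 higher and 1 lower in Dax1KO cells, with a median of 0.01. Clec4a1 had a mean of 81.1 normalized counts in control cells and 18.5 in Dax1KO cells in 2i/LIF, and 0 counts in all 4 libraries in LIF/serum. Against a floor of 3 counts per library it was at least 27.0-fold higher in 2i/LIF in control cells and at least 6.18-fold higher in Dax1KO cells. Phc1, a Polycomb gene 237 kb before Apobec1 that was singled out after its values were seen, was lower in 2i/LIF, at -1.56 in control cells (edgeR, adjusted p = 8.2e-05) and -2.15 in Dax1KO cells.

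Finally, the genes whose profile over the 8 libraries was closest to each member were found among 9241 genes with a mean of at least 500 normalized counts. Likeness was the root mean square difference of centred log2 values, and 8 libraries in 4 groups leave many profiles alike. Closest to Nanog were Sdc1 (0.052) and Zdhhc2 (0.069), where the median over all genes was 0.64. Closest to Gdf3 were Hmgxb4 (0.069) and L3mbtl2 (0.084), and closest to Foxj2 were Rpap1 (0.054) and Fech (0.070). Slc2a3 was nearest to Ivd (0.11) and Mvd (0.12), and Apobec1 to Syap1 and Tigar (both 0.13), of which Tigar also lies on chromosome 6. Closest to Dppa3 were Cox7b2 (0.49) and Gtsf1 (0.61). These distances grow with the size of a member's own differences, and the median over all genes was 2.02 for Dppa3, 0.58 for Gdf3, 0.54 for Slc2a3, 0.41 for Foxj2 and 0.39 for Apobec1. None of the closest genes was another member.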

How the data were processed

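The files held counts, whole numbers per gene and library as deposited by the authors, without normalization, for 2 libraries in each of 4 groups assigned from the sample titles. The submitters' processing notes name HISAT2 2.0.4, DESeq2 and mm10. The counting tool and annotation are not given in the sources used here. Of 52550 Ensembl identifiers, 52403 were found in GENCODE M21 (GRCm38), which gave symbols and positions.

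The members and lists were chosen with earlier results of these data known. Counts were filtered with filterByExpr (20749 genes kept), scaled by TMM and fitted with edgeR 4.0.16 in R 4.3.3 (quasi-likelihood, a mean per group, all 8 libraries, no block). Benjamini-Hochberg adjustment ran over all tested genes. Calls needed an adjusted p no higher than 0.05 with at least a 1.2-fold change. The standard error was the log2 fold change divided by the square root of F. The biological coefficient of variation was 20.9% and the prior degrees of freedom were 4.04. Standard errors include the spread between libraries. The floor of 3 counts covers counting error only, and low counts piled up at 3 and 6 in the libraries.

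Named were all members, at most 10 nearest tested neighbours within 1 Mb, the 2 closest profiles per member, and at most 4 called genes per list, beside a few named after their values were seen. Some genes of the lists and the neighbourhood are not reported here and were left out of the counts over them. The longest transcripts were aligned with blastn 2.17.0 at 95% identity. On simulated counts of 20094 genes for Dax1KO against control in LIF/serum, 21% of genes planted at 2-fold and 62% at 4-fold were called, with 7 false calls among 18891 genes, and a planted chromosome 6 shift of 0.5 was recovered at 0.48. The alternatives were DESeq2 1.42.0, RLE factors, TMM without chromosome 6, other filters, separate fits, a replicate block, other gene lengths, and each library left out in turn.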

Additional observations from a re-analysis of the deposited data

Results flagged for a closer look

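The Dax1KO values of 2 members had opposite signs in the 2 media, with both Dax1KO libraries beyond both control libraries in each medium. The same held for 9.50% of all tested genes, and the members were chosen on these values. For Nanog the log2 fold change in LIF/serum minus that in 2i/LIF was 0.43. For Dppa3 it was -2.12. Foxj2 also had opposite signs, but its libraries overlapped between genotypes in 2i/LIF. With a library left out, the sign of Foxj2 in 2i/LIF changed, and Nanog in 2i/LIF ran from -0.24 to -0.05. For Foxj2 the medium values also had opposite signs in the genotypes, and the effect in control cells minus that in Dax1KO cells was 0.75, but the Dax1KO value was -0.03 (SE 0.16), near 0. Slc2a3 had a wider gap, with 0.01 in control and -0.96 in Dax1KO cells, but its control libraries overlapped between media. These differences were not tested.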

How the results depend on the processing

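Of 360 log2 fold changes of the members under the alternatives, none changed the direction of a called value. Of 180 for the medium comparisons, 178 kept their side of the threshold, and the other 2 were those of Foxj2 given above. Of 180 for the knockout comparisons 165 kept their side. The replicate numbers did not pair the libraries (correlations of deviations of 0.06, 0.00, 0.08 and 0.11), and with a replicate block 1 member was called in 2i/LIF (Dppa3) in place of 0 and 4 in LIF/serum in place of 3. It changed no call of the medium comparisons. Over the alternatives that keep all libraries, 2 to 4 members were called in LIF/serum, the count of 2 coming from separate fits. DESeq2 also called 1 member in 2i/LIF, again Dppa3. With each library left out in turn, the members called ranged from 3 to 4 and stayed at 4 for the medium in control and Dax1KO cells, and were 0 in 2i/LIF and 1 to 3 in LIF/serum for the knockout. The count of 1 came without the second control library or either Dax1KO library of LIF/serum. The chromosome 6 median in 2i/LIF (0.44) was 0.46 with TMM without chromosome 6, 0.36 with no filter on low counts, 0.46 with separate fits, 0.45 over genes with at least 100 normalized counts, 0.46 over protein-coding genes and 0.41 to 0.45 with a library left out. In LIF/serum (0.52) it was 0.42 with no filter, 0.55 over genes with at least 100 normalized counts, 0.56 over protein-coding genes and 0.48 to 0.53 with a library left out. The restriction to protein-coding genes was chosen after seeing the data, and the cause of these differences was not tested. The order of levels per length was the same in 8 of 8 combinations of group and alternative. Leaving out the TMM factors scales all genes of a library alike, so it could not change the order within a library. With 2 libraries per group, differences near 2-fold were often missed in simulated data.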
